A study of Drosophila melanogaster with 22 samples.

Results

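FAIRE-seq peaks of the eye-antennal imaginal disc were compared with those of the central nervous system (CNS) in Drosophila melanogaster larvae of the third instar. FAIRE recovers, by phenol-chloroform extraction of fixed and sheared chromatin, the DNA that is not held by protein, so a peak marks open chromatin. Only peaks on the chromosome arms X, 2L, 2R, 3L, 3R and 4 were taken, 9975 in the eye-antennal disc and 9990 in the CNS, which together are 19965 of the 181196 peaks in the 11 FAIRE lists of the series. A peak counted as shared when it overlapped a peak of the other tissue by at least 1 bp, and as one-sided when it did not. One-sided peaks are called eye-antennal-only and CNS-only below, although many of them occur in further tissues.

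Both tissues came from animals of a y;cn,bw,sp strain. The other 9 lists covered the T3 leg, haltere and wing discs of the same strain and stage, the T3 leg, haltere and wing of pharate adults of that strain at stage P14, and whole embryos of the OregonR strain aged 2 to 4 h, 6 to 8 h or 16 to 18 h from egg laying. Each tissue had 1 deposited list, although its labels name 3 replicates for these tissues and the series design names 2. No spread between replicates was therefore available, and no test between tissues was possible. Intervals are exact 95% binomial intervals for shares and Newcombe intervals for differences of shares. They cover counting error only, and take peaks as independent although neighbouring peaks may not be.

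The eye-antennal disc is a folded epithelium that forms the compound eye, the antenna and much of the head capsule. In the late larva a furrow sweeps across its eye part, and photoreceptor neurons differentiate behind it and send axons to the brain. The larval CNS consists of the brain lobes and the ventral nerve cord, and holds dividing neuroblasts, neurons and glia. The disc is thus an epithelium, like the discs of the leg, wing and haltere, and its eye part makes photoreceptor neurons. Open chromatin in fly tissues marks promoters, which are often accessible in many tissues, and enhancers, which tend to be accessible in fewer. No genome or annotation of the build of the lists, dm3, was at hand, so peaks carry no gene names and the tissue labels were not checked against marker genes.

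The 2 lists were alike in length and in covered sequence, but not in how their scores were spread. Peaks covered 4.64 Mb in the eye-antennal disc and 4.58 Mb in the CNS, with median widths of 387 and 379 bp. The authors' peak scores, whose scale is not given in the sources used here, had a median of 11.5 and a maximum of 152 in the disc, and a median of 13.7 and a maximum of 133 in the CNS. Scores were used to rank peaks within a list. These 2 lists also stood apart from the other 9 in how they were made up. They alone held peaks outside the 6 arms, 455 in the disc and 211 in the CNS. The narrowest peak was 250 bp in both, as in the pharate and embryo lists, against 143 to 149 bp in the leg, haltere and wing disc lists. What these differences contribute to the recurrence values below was not tested.

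A little over 50% of each tissue's peaks were shared with the other. Of the eye-antennal disc peaks, 5649 of 9975 (56.6%, interval 55.7 to 57.6) overlapped a CNS peak. In the other direction, 5628 of 9990 CNS peaks (56.3%, 55.4 to 57.3) had a counterpart in the eye-antennal disc. This left 4326 eye-antennal-only and 4362 CNS-only peaks. Merging the lists gave 14097 regions, of which 5409 (38.4%, 37.6 to 39.2) held peaks of both tissues. Most shared peaks matched one to one, in 4988 pairs, while 215 disc peaks each overlapped 2 or more CNS peaks and 234 CNS peaks each overlapped 2 or more disc peaks. In the one-to-one pairs the centres lay a median of 41 bp apart, and in 88.5% of pairs the shared stretch made up at least 50% of both peaks.

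How many one-sided peaks were near misses depended on the distance allowed. Within 200 bp of a peak of the other tissue lay 5.43% of eye-antennal-only peaks and 6.90% of CNS-only peaks. Within 500 bp it was 12.7% and 15.3%, and within 1000 bp 20.6% and 24.4%. The nearest peak of the other tissue was a median of 4550 bp away from eye-antennal-only peaks and 3497 bp from CNS-only peaks, and at most 208607 and 157046 bp.

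Shared peaks scored higher and were wider than one-sided peaks in both lists. In the eye-antennal disc the median score was 13 for shared peaks (quartiles 8.68 and 20.7) and 9.76 for one-sided peaks (6.66 and 15.9). In the CNS it was 17.5 (10.8 and 27.1) against 10.4 (6.89 and 15.5). Median widths were 406 and 366 bp in the disc, and 420 and 336 bp in the CNS. The tissues differed most at the top of their lists. The best-scoring decile of CNS peaks was shared in 85.2% of cases (82.8 to 87.3) and the lowest decile in 29.6% (26.8 to 32.6). For the disc the same deciles gave 70.8% (67.9 to 73.6) and 39.3% (36.2 to 42.4). A strong CNS peak was thus less often one-sided than a strong disc peak. Within the best-scoring decile the median widths of shared and one-sided peaks were 698 and 635 bp in the disc, and 604 and 618 bp in the CNS, while in the fifth decile of the CNS they were 408 and 351 bp. The part of width in sharing was not tested.

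**Figure D1:**
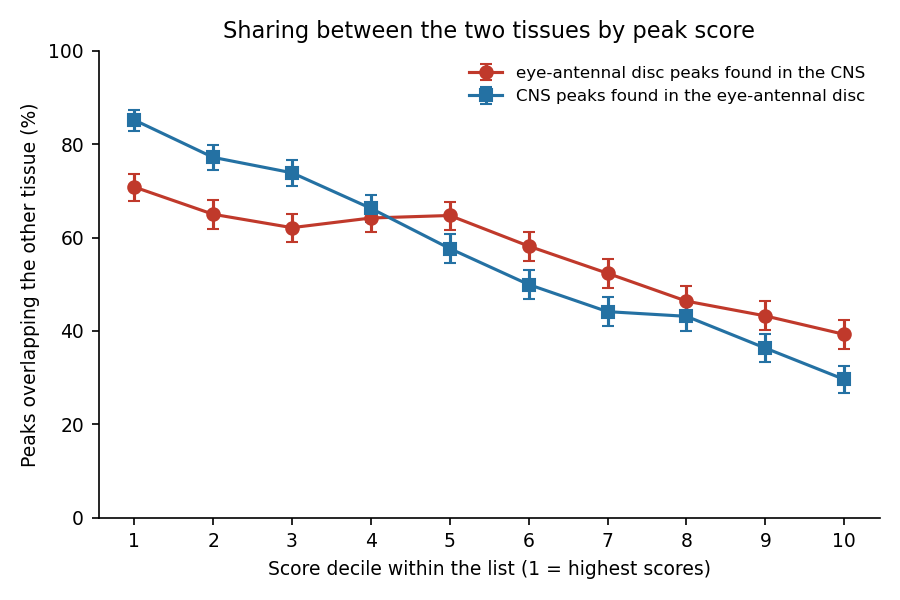
Share of peaks that overlap a peak of the other tissue (y axis, percent, with exact 95% binomial intervals) in each score decile of the list (x axis, 1 being the highest scores). Sharing falls from 85.2% to 29.6% for CNS peaks and from 70.8% to 39.3% for eye-antennal disc peaks, and the lines cross near the middle of the lists.

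Among the 5000 best-scoring peaks of each list, where fewer peaks were left to overlap, sharing was lower. The 5000th peak scored 11.5 in the disc and 13.7 in the CNS, and 11 and 15 peaks had exactly those scores, so the lists were closed by position among ties. Of the disc's 5000, 2444 (48.9%, 47.5 to 50.3) overlapped one of the CNS's 5000, a further 826 overlapped a weaker CNS peak, and 1730 (34.6%, 33.3 to 35.9) were absent from the whole CNS list. Of the CNS's 5000, 2422 (48.4%, 47.0 to 49.8) were also in the disc's 5000, 1179 overlapped a weaker disc peak, and 1399 (28.0%, 26.7 to 29.2) were absent from the whole disc list.

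Within shared pairs the order of the scores was only loosely alike. Across the 4988 one-to-one pairs the Spearman correlation of ranks was 0.36, given as a description, since the pairs share a genome position and score also follows width. Of the pairs, 605 held a peak among the disc's 1000 best and 736 one among the CNS's 1000 best, and 253 were in both. There were 143 pairs that ranked in the best 1000 of the disc and below 5000 in the CNS. Nearly all of these (97.2%, 93.0 to 99.2) had a member that overlapped a peak of a leg, haltere or wing disc. The 89 pairs with the opposite order did in 66.3% of cases (55.5 to 76.0), against 70.6% of all one-to-one pairs. An embryo peak was found for 87.4% (80.8 to 92.4) and 82.0% (72.5 to 89.4) of them, against 70.3% of all pairs. These pairs were chosen for a high rank, and recurrence went with score. In the best-scoring class described below, 87.5% of shared disc peaks and 84.0% of shared CNS peaks had an embryo peak. A leg, haltere or wing disc peak was found for 90.0% and 78.9%. These shares count single peaks, over a wider span of ranks than the best 1000, while a pair counted when either member overlapped. They are thus not a matched reference. Beside them the embryo values were not higher, while 97.2% was higher and 66.3% lower, and whether the pairs differ from peaks of like rank was not tested. The pair furthest apart in favour of the disc was 2R 13284629 to 13286013, ranked 35 in the disc with a score of 89.4 and 9846 in the CNS with 3.64. In favour of the CNS it was X 12090825 to 12091250, ranked 106 with a score of 70.4 and 9803 in the disc with 3.80. The first occurred in 8 of the 9 other lists and the second in none. The next 4 pairs in favour of the disc were each in all 3 of the leg, haltere and wing disc lists, and the next 4 in favour of the CNS were in 3, 3, 2 and 1 of them.

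The clearest contrast between the one-sided classes was in the leg, haltere and wing discs. Of all peaks, 68.2% of the eye-antennal disc's and 53.0% of the CNS's overlapped a peak of at least 1 of these 3 discs. Eye-antennal-only peaks did so in 65.7% of cases (64.3 to 67.1), close to their list as a whole, while CNS-only peaks did so in 30.1% (28.8 to 31.5). The difference was 35.6 percentage points (33.6 to 37.5). Shared peaks did so in 70.0% and 70.8% of cases, so the difference between the whole lists lies in their one-sided peaks. The 2 contrasts are therefore not separate results. List by list, 62.7% of eye-antennal-only and 27.8% of CNS-only peaks were found in the leg disc, 56.8% and 23.2% in the haltere disc, and 59.6% and 21.8% in the wing disc. The corresponding shares of all peaks were 65.9% and 51.2%, 59.6% and 45.3%, and 61.9% and 45.6%. All 3 discs had a peak for 2327 eye-antennal-only peaks (53.8%), near the 56.6% of all peaks of that list, while 262 were in 1 disc and 253 in 2. Of CNS-only peaks, 828 (19.0%) were in all 3 discs, against 41.7% of all CNS peaks, and 3048 (69.9%) were in none.

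Over whole lists, pharate appendages and embryos separated the classes less. The 9 other lists differed in length, from 11096 peaks in the embryo at 6 to 8 h to 30374 in the pharate haltere. A peak in at least 1 pharate appendage was found for 49.8% of eye-antennal-only peaks (48.3 to 51.3) and 46.1% of CNS-only peaks (44.6 to 47.5), below the 63.7% and 62.5% of all peaks of the lists. The pharate leg had 39.3% and 33.7% of them (all peaks 55.6% and 53.6%), the pharate haltere 40.2% and 36.5% (51.8% and 50.7%) and the pharate wing 40.2% and 30.1% (55.0% and 51.0%). At least 1 embryo stage had a peak for 46.9% (45.4 to 48.4) and 47.5% (46.0 to 49.0), against 60.3% and 60.5% of all peaks. The difference was 3.71 percentage points (1.61 to 5.81) over pharate appendages and -0.62 (-2.72 to 1.48) over embryos. With every other list cut to its 9975 best-scoring peaks, it was 6.69 (4.69 to 8.68) and -1.43 (-3.50 to 0.64). By embryo stage, however, the order turned. At 2 to 4 h fewer eye-antennal-only than CNS-only peaks recurred (25.5% against 32.2%, all peaks 43.4% and 46.4%), and at 6 to 8 h likewise (30.0% against 32.7%, all peaks 45.0% and 46.2%). At 16 to 18 h more of them did (34.7% against 30.4%, all peaks 47.6% and 45.4%). The differences were -6.69 (-8.59 to -4.79), -2.71 (-4.66 to -0.76) and 4.37 percentage points (2.40 to 6.33). In 4 of 5 score classes the difference at 16 to 18 h had an interval that included 0, and it was 6.07 points (2.75 to 9.40) among the lowest-scoring peaks. Shared peaks of both tissues recurred at 56.6 to 69.3% in each of the 9 lists, above the one-sided peaks of the same tissue in every list. The shared classes of the 2 tissues are largely the same regions, so their values are not independent.

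**Figure D2:**
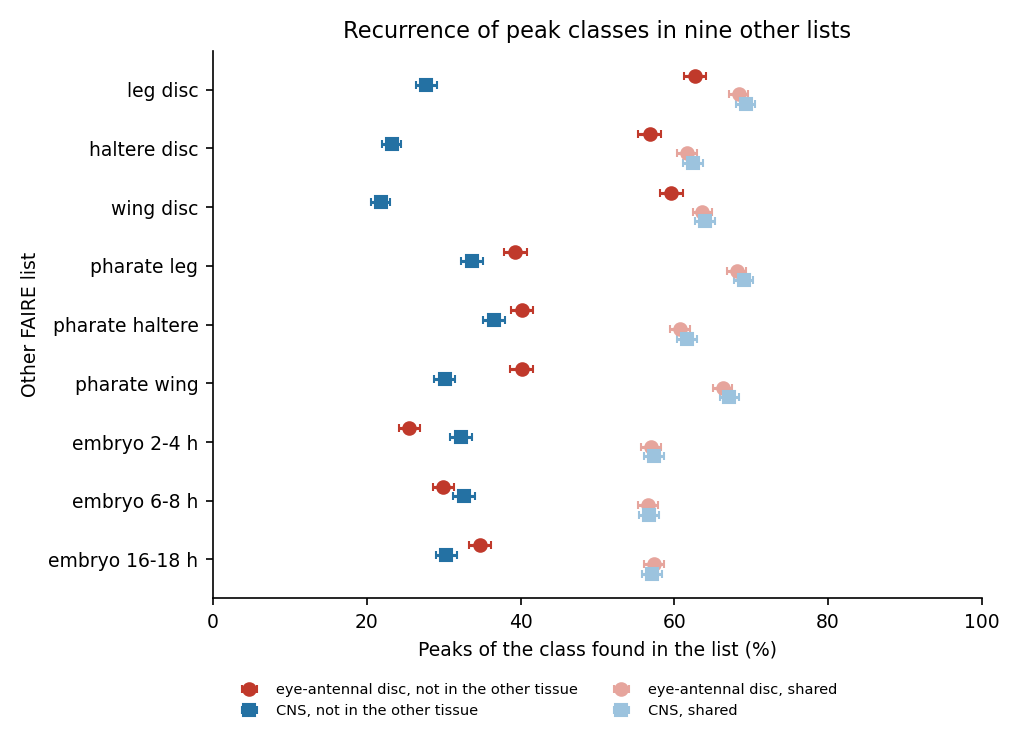
Share of each class of peaks found in each of the 9 other lists (x axis, percent, with exact 95% binomial intervals). Dark symbols are one-sided peaks and pale symbols shared peaks, circles for the eye-antennal disc and squares for the CNS, and the one-sided classes stand 33.6 to 37.8 points apart in the leg, haltere and wing discs and at most 10.0 points apart elsewhere.

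The contrast in the discs was widest among the strongest peaks. Each list was divided into 5 classes of equal size by score. In the best-scoring class, 609 of 640 eye-antennal-only peaks (95.2%, 93.2 to 96.7) had a peak in the leg, haltere or wing disc, against 116 of 376 CNS-only peaks (30.9%, 26.2 to 35.8). In the lowest class the shares were 44.0% (41.2 to 46.9) and 19.7% (17.6 to 22.0). Strong disc peaks absent from the CNS recurred in the appendage discs even more often than strong disc peaks shared with it, which did so in 90.0% (88.3 to 91.6). In pharate appendages the order changed with score. The best-scoring class had a pharate peak for 75.3% of eye-antennal-only (71.8 to 78.6) and 44.7% of CNS-only peaks (39.6 to 49.9), the middle class for 51.1% (47.5 to 54.7) and 56.3% (53.1 to 59.6), and the lowest for 32.9% and 34.0%. Embryo peaks were found for 65.9% and 66.5% in the best-scoring class, but for 51.4% (47.7 to 55.1) and 60.4% (56.3 to 64.3) in the second and 46.9% (43.4 to 50.5) and 55.0% (51.8 to 58.3) in the middle class. In the lowest class the order was the opposite, at 37.0% (34.3 to 39.9) and 31.8% (29.3 to 34.4). Among the 100 best-scoring one-sided peaks of each list, 99 of the disc's were found in all 3 appendage discs and 40 in all 9 lists. Of the CNS's, 75 were in no appendage disc, 69 were in an embryo list and 24 were in none of the 9. Of all eye-antennal-only peaks, 53.8% were in all 3 appendage discs and 10.6% in all 9 lists. For the whole disc list these were 56.6% and 2419 of 9975 peaks. Of all CNS-only peaks, 69.9% were in no appendage disc, 47.5% in an embryo list and 38.0% in none of the 9. For the whole CNS list these were 47.0%, 60.5% and 2532 of 9990 peaks.

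**Figure D3:**
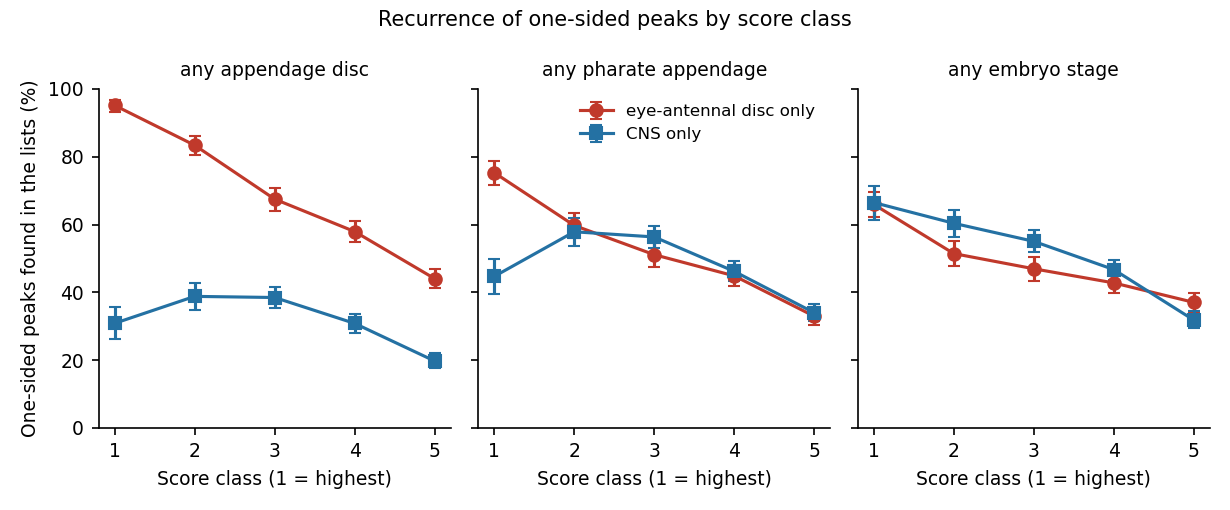
Share of one-sided peaks found in at least 1 appendage disc, pharate appendage or embryo list (y axis, percent, with exact 95% binomial intervals) by score class of each list (x axis, 5 classes of equal size, 1 being the highest). In the appendage discs the eye-antennal-only line runs from 95.2% down to 44.0% and stays above the CNS-only line, which lies between 19.7% and 38.8%, while in pharate appendages and in embryos the lines cross.

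The same contrast held for the 1730 and 1399 peaks that were in the best 5000 of one tissue and absent from the other's whole list. Of these, 84.7% (83.0 to 86.4) of the disc's and 37.0% (34.5 to 39.6) of the CNS's had a peak in an appendage disc, against 80.6% and 63.9% of all of the best 5000. A pharate appendage had 63.4% and 54.5% of them, against 74.3% and 72.9% of all of the best 5000. At 2 to 4 h the embryo had 32.7% and 43.3% of them, against 52.8% and 58.0%, and at 16 to 18 h 43.0% and 40.5%, against 58.9% and 56.2%. By arm, the difference in the appendage discs between all one-sided classes was 38.3 points on 2L, 35.1 on 2R, 41.9 on 3L, 42.3 on 3R and 27.0 on X. On chromosome 4 it was 2.13 (-5.50 to 8.91).

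Read the other way, where else a peak occurred went with how often the tissues shared it. Disc peaks whose only other peaks were in leg, haltere or wing discs were shared with the CNS in 110 of 676 cases (16.3%, 13.6 to 19.3). Disc peaks found in pharate appendages and embryos but in no appendage disc were shared in 231 of 281 (82.2%, 77.2 to 86.5). For CNS peaks the order was the opposite, with 113 of 159 (71.1%, 63.4 to 78.0) shared when the other peaks were in appendage discs alone, and 225 of 686 (32.8%, 29.3 to 36.5) when they were in pharate appendages and embryos. Peaks found in all 3 kinds of list were mostly shared, at 71.8% and 77.7%. Over all of the lists, 56.6% and 56.3% were shared.

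**Figure D4:**
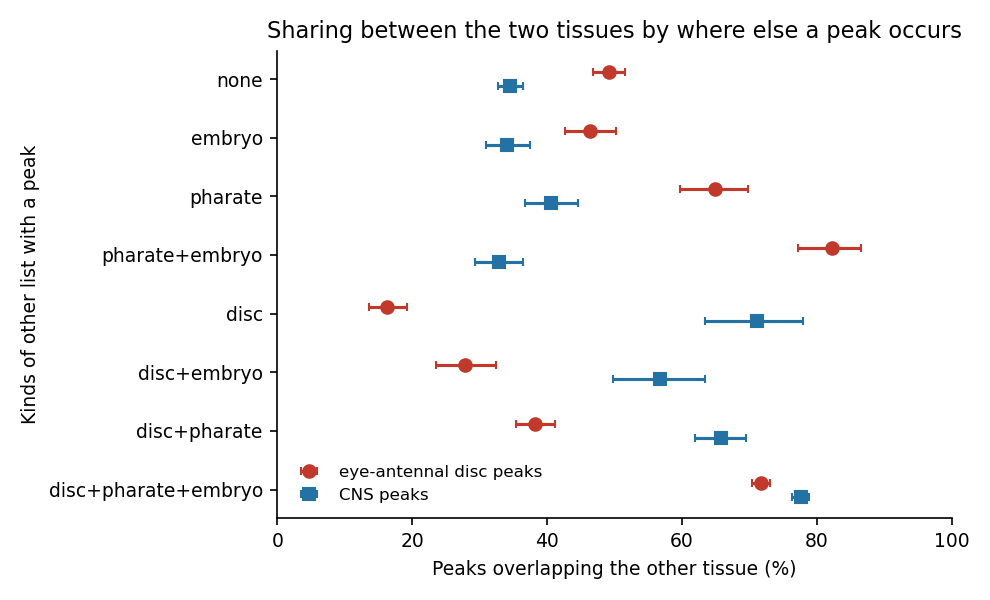
Share of peaks that overlap the other tissue (x axis, percent, with exact 95% binomial intervals) by the kinds of other list in which the peak occurs (y axis). Circles are eye-antennal disc peaks and squares CNS peaks, which lie on opposite sides, at 16.3% and 71.1%, where the other peaks are in appendage discs alone.

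Counted over the 9 other lists, one-sided peaks of the CNS recurred least. They occurred in a median of 2 lists, eye-antennal-only peaks in 4 and shared peaks of either tissue in 7. No other list had a peak for 1657 CNS-only peaks (38.0%) and 935 eye-antennal-only peaks (21.6%). Over the whole lists this held for 2532 of 9990 CNS peaks and 1840 of 9975 disc peaks. The one-sided peaks found in no other list scored low, with medians of 8.49 and 7.32. Among their list's best 5000 were 374 (22.6%) and 171 (18.3%) of them. For all one-sided peaks this held for 1399 of 4362 in the CNS and 1730 of 4326 in the disc. At the other end, 459 eye-antennal-only peaks occurred in all 9 other lists, so that of the 11 lists the CNS alone lacked them, and for 288 CNS-only peaks the eye-antennal disc alone did. These were 459 of 4326 and 288 of 4362 one-sided peaks. Of all peaks, 2419 of 9975 in the disc and 2215 of 9990 in the CNS occurred in all 9. Both tissues had a peak, and none of the 9 others did, at 905 of 5649 shared disc peaks and 875 of 5628 shared CNS peaks. Of these, 354 (39.1%) and 437 (49.9%) were among the best 5000, against 3270 of 5649 and 3601 of 5628 of all shared peaks.

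The strongest eye-antennal-only peaks were regions with a peak in 7 to 9 of the 9 other lists. The first was 2L 13043810 to 13044631, with a score of 152 the best peak of the whole disc list. It occurred in the leg, haltere and wing at disc and pharate stages and in the embryo at 16 to 18 h, and the nearest CNS peak was 7580 bp away. The next were 2R 6469898 to 6471368 (score 148) and 3L 8365009 to 8365566 (120), which occurred in all 9 other lists. These were followed by 3R 20810588 to 20811337 (120) and 2R 4899457 to 4899912 (103), each in 8 lists. All 5 were in every appendage disc and pharate appendage list.

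The strongest CNS-only peaks occurred in few lists. At 3L 6645914 to 6646347 the CNS had a peak with a score of 87.7, ranked 31 in its list, and the only other peak was in the embryo at 2 to 4 h. The nearest disc peak was 46512 bp away. The next, X 12281976 to 12282424 (score 82.4), was in none of the other lists, though a disc peak lay 81 bp away. A peak at 2L 20229718 to 20230430 (77.6) recurred in the embryo at 16 to 18 h alone. The peak at 3L 908732 to 909147 (77.4) was in all 3 embryo lists and in the pharate haltere. The peak at 2L 19137486 to 19138457 (72.6) was in the appendage discs and the embryos but in no pharate list, and lay 128 bp from a disc peak.

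Even the strongest shared peaks held different places in the 2 lists. The best-scoring shared peaks of the disc were X 1505596 to 1506431 (score 143), 2L 18319796 to 18320273 (143), X 8785386 to 8786083 (131), 2R 11722407 to 11722979 (130) and 2R 7068086 to 7068888 (128). In the CNS their partners ranked 1548, 615, 2970, 2696 and 1800. All 5 were in every appendage disc and pharate list. The best-scoring CNS peak of all, 3L 10314875 to 10315657 (133), had a disc partner ranked 4708. The second, 2L 9082759 to 9083399 (121), had one ranked 3816 and occurred in none of the 9 other lists. The following 3, at 2L 21683416 to 21684282 (120), 3R 12075095 to 12076505 (110) and 3R 12089674 to 12090110 (109), had partners ranked 780, 879 and 125.

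The arms took similar parts of each class, with the X and chromosome 4 as the exceptions. The X held 20.8% of the disc's peaks and 18.7% of the CNS's. There the disc shared a smaller part of its peaks (53.6%, 51.4 to 55.8) and the CNS a larger one (59.6%, 57.3 to 61.8), which left 963 eye-antennal-only and 755 CNS-only peaks. On arms 2L, 2R, 3L and 3R sharing lay between 54.1% and 59.5% in both directions.

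Chromosome 4, a small chromosome largely packaged as heterochromatin, had the lowest sharing. Of its 192 disc peaks 76 (39.6%, 32.6 to 46.9) were shared, and of its 157 CNS peaks 73 (46.5%, 38.5 to 54.6). The one-sided classes of this chromosome differed most in the late embryo. They scored low, with medians of 6.66 in the disc and 8.4 in the CNS, against 11.5 and 13.7 for the whole lists. Of 116 eye-antennal-only peaks, 60 (51.7%, 42.3 to 61.1) were found at 16 to 18 h, against 5 of 84 CNS-only peaks (5.95%, 1.96 to 13.3), where all peaks of the chromosome recurred in 46.9% and 21.0%. The difference was 45.8 points (34.2 to 55.3). At 2 to 4 h the shares were 20.7% and 20.2%, and at 6 to 8 h 34.5% and 19.0%, against 37.0% and 27.4% of all peaks of the chromosome at 6 to 8 h. Few chromosome 4 peaks of either class were in appendage discs, 8 of 116 (6.90%) and 4 of 84 (4.76%). Of all peaks of the chromosome, 13.54% in the disc and 14.01% in the CNS were, and of the shared ones 23.7% and 24.7%. The appendage disc lists held only 41 to 45 peaks on this chromosome, so recurrence in them is limited there.

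One-sided peaks were also counted in windows of 50 kb. Of 2224 windows with a peak of either list, 247 held 5 or more eye-antennal-only peaks and 209 held 5 or more CNS-only peaks, and 25 held 5 or more of each. These 25 are 10.1% of the windows rich in eye-antennal-only peaks, near the 9.40% of all windows that were rich in CNS-only peaks. In 82 of the 247 there was no CNS-only peak, and in 56 of the 209 no eye-antennal-only peak. Of all 2224 windows, 1706 held a CNS-only peak and 1612 an eye-antennal-only peak, so many windows of any kind lacked one class. The Spearman correlation over windows was 0.62 between the numbers of all peaks of the 2 lists and -0.06 between the numbers of one-sided peaks, both given as descriptions, since classes exclude one another where peaks overlap.

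The window with the most eye-antennal-only peaks was X 4900001 to 4950000, with 15. The CNS had no peak of any kind in it. Their scores ran from 4.25 to 46.2. Of the 15, 8 were found in an appendage disc and 7 in none of the 9 other lists. The leg, haltere and wing discs had 17, 15 and 18 peaks there, and embryos 4 to 6. Window X 2900001 to 2950000 held 14 eye-antennal-only and 2 CNS-only peaks, and 10 of the 14 were in an appendage disc. The windows 3R 23000001 to 23050000 and 3L 11350001 to 11400000 each held 13, against 0 and 4 CNS-only peaks. In an appendage disc 13 and 12 of them recurred. Window 2R 17400001 to 17450000 held 12, each of them found in an appendage disc and in a pharate appendage. Of all eye-antennal-only peaks, 65.7% were in an appendage disc, 49.8% in a pharate appendage and 21.6% in none of the 9 lists. For the whole disc list these were 68.2%, 63.7% and 1840 of 9975 peaks. By summed score X 9900001 to 9950000 came first, with 10 eye-antennal-only peaks and no CNS peak.

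For the CNS the densest window was 3L 10800001 to 10850000, with 18 CNS-only and no eye-antennal-only peaks. None of the 18 was in an appendage disc, and 10 were in an embryo list. The embryo lists had 13, 15 and 21 peaks in this window, in order of age. At X 12800001 to 12850000 there were 15 CNS-only peaks and 1 eye-antennal-only peak, and 10 of the 15 were in none of the 9 other lists. Window 2L 17550001 to 17600000 held 14, with a summed score of 388 the highest of any, and no disc peak at all. The leg and haltere discs had 1 peak each there and the wing disc 0, against 7, 11 and 8 in the embryos. The windows 3L 10250001 to 10300000 and 3R 800001 to 850000 held 12 each, against 1 and 3 eye-antennal-only peaks. Of all CNS-only peaks, 30.1% were in an appendage disc, 47.5% in an embryo list and 38.0% in none of the 9 lists. For the whole CNS list these were 53.0%, 60.5% and 2532 of 9990 peaks. The rank of the densest windows depended on the settings, which gave other eye-antennal-only windows 12 to 16 peaks.

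**Figure D5:**
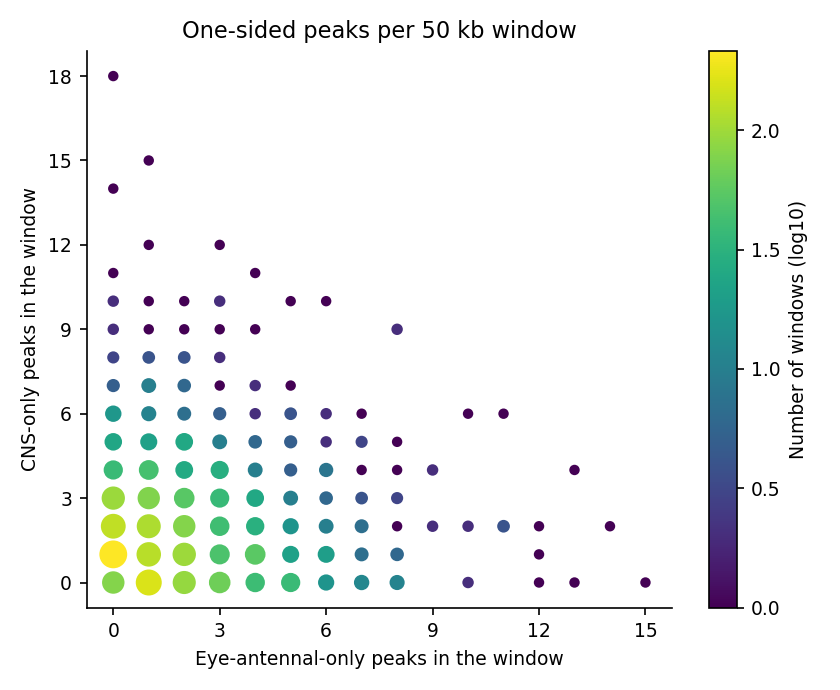
Number of eye-antennal-only peaks (x axis) and CNS-only peaks (y axis) in windows of 50 kb, where the colour and size of a point give the number of windows with those counts (colour on a log10 scale). The largest counts are 15 eye-antennal-only peaks in a window with no CNS-only peak and 18 CNS-only peaks in one with no eye-antennal-only peak, and 25 windows hold 5 or more of each.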

How the data were processed

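The authors deposited 1 list of FAIRE peaks per tissue or stage, giving for each peak its chromosome, start, end, a name in the manner of MACS and a score. How the score is scaled, which cut-off and control were used for calling, and whether replicates were pooled are not given in the sources used here. Build dm3 and the tools CASAVA 1.7, Bowtie 0.12.3 and MACS2 are named, per the submitters' processing notes, without their roles. The number of reads behind a list is unknown, so list lengths may carry depth. Transcript tables hold neither of these tissues and were not used.

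Coordinates are of dm3, counted from 1. Overlaps of at least 1 bp, ranks, windows of 50 kb (by peak centre) and intervals were computed in Python 3.11.15 with pandas 2.3.3 and scipy 1.17.1, and the overlap code was tested on simulated lists. Regions named are the 5 best-scoring peaks of each class, the 5 densest windows of each one-sided class and the pairs furthest apart in rank, of which 1 in each direction is given. Members and rules were chosen with earlier results of these data known. Alternatives were stricter peaks and overlaps, narrower peaks, a wider tolerance, equal list lengths and the omission of chromosome 4.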

Additional observations from a re-analysis of the deposited data

Results flagged for a closer look

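The lists of the eye-antennal disc and the CNS held peaks on sequences outside the 6 arms, which the comparison above does not use. There were 455 such peaks in the eye-antennal disc and 211 in the CNS, and 0 in the other 9 lists together. In the disc 211 of them lay on the heterochromatic scaffolds of the named chromosomes, 236 on the unplaced collections U and Uextra and 8 on the mitochondrial genome. In the CNS the numbers were 66, 136 and 9. Their median scores were 9.43 and 12.6, and the highest were 445 and 204, both on Uextra and above any score on the arms of the same list. No control list was at hand, and whether the other lists were restricted to the arms before deposit is not given in the sources used here.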

How the results depend on the processing

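Sharing moved with the definition of a shared peak. The share of eye-antennal disc peaks overlapping a CNS peak was 48.9% among the 5000 best-scoring peaks of each list, 46.2% when at least 50% of both peaks had to overlap, 49.0% with peaks cut to their central 200 bp and 62.1% when peaks within 500 bp also counted. For CNS peaks overlapping a disc peak these settings gave 48.4%, 46.1%, 48.9% and 63.0%. The excess of eye-antennal-only over CNS-only peaks in appendage discs stayed positive, at 33.1, 28.6, 31.9 and 38.2 percentage points in the same order, and at 39.8 when every other list was cut to its 9975 best-scoring peaks. The excess at 16 to 18 h lay between 3.24 and 5.19 points over 6 settings, all inside its interval. Leaving out chromosome 4 kept all 4 values within their intervals. Among the best 5000 peaks the densest CNS-only window became 2L 17550001 to 17600000, with 10 peaks, and the densest eye-antennal-only window became 3L 600001 to 650000, with 12. The latter became 3L 11350001 to 11400000 (16) under the 50% overlap and 2R 13675001 to 13725000 (13) with windows moved by 25 kb. No paired analysis was possible because each tissue has 1 list. The unknown read depth limits what an absent peak means.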

Other observations

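Neighbouring windows with one-sided peaks mostly of one tissue formed longer stretches, which were looked for after the windows had been seen. Counting windows of 50 kb in a row with at least 3 one-sided peaks of one tissue and at most 1 of the other, the longest stretch of the eye-antennal disc was X 9700001 to 10050000. It held 39 eye-antennal-only peaks, 1 CNS-only peak and 2 shared peaks. The leg, haltere and wing discs had 40, 37 and 35 peaks there and the pharate appendages 49 to 61. The embryo lists had 52 at 16 to 18 h, against 8 at 2 to 4 h and 10 at 6 to 8 h. For the CNS the longest stretch was 2L 18950001 to 19200000, with 30 CNS-only and 3 eye-antennal-only peaks among 30 and 31 shared ones. The leg, haltere and wing discs had 64, 61 and 50 peaks there, the pharate appendages 63 to 116 and the embryos 37 to 56. Next came 2L 17400001 to 17600000, with 25 CNS-only, 2 eye-antennal-only and 3 shared peaks, where the leg, haltere and wing discs had 16, 14 and 13 peaks and embryos 15 to 22. There were 55 stretches of 2 or more windows for the disc and 66 for the CNS.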
